A study of Mus musculus with 19 samples.

Results

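The 7 libraries described here came from the gastrocnemius, a fast calf muscle, of mice that carried a C26 tumour and received vehicle. They are 7 of the 19 libraries in the series, in which 5 further libraries came from C26 mice given rolipram and 7 from control mice with no tumour. Genes were kept if their RPKM (reads scaled to gene length and library size) was at least 1 in every one of the 7 libraries, which held for 9573 of the 13067 genes listed. A further 1860 genes reached that level in some of the 7 libraries and 1634 in none, and these were left out. Values were set on a log2(RPKM + 1) scale, and what is described is how far each gene varied among libraries of the same group and which genes varied together. The hosts were male Balb/c mice of 2 months at the time of injection, the C26 cells went under the skin of the flank, and vehicle was dilute ethanol in saline, given into the peritoneum starting on day 4. Control mice were used for a single comparison of spread and for a projection onto the main axis, and the labels say of them only that they carried no tumour. The labels number the samples without saying whether each is a different mouse, and the p-values below then measure the spread between these samples, which may be technical. No tumour mass, body weight or muscle weight goes with the libraries, so the stage of wasting in each is not known here.

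Cachexia is the loss of skeletal muscle and fat that accompanies many cancers, and C26 is a mouse colon adenocarcinoma line widely used to provoke it. In wasting muscle, FOXO transcription factors and glucocorticoids raise the ubiquitin ligases Trim63 (MuRF1) and Fbxo32 (atrogin-1), which mark muscle proteins for breakdown by the proteasome. Genes of oxidative metabolism usually fall in the same muscle, and circulating cytokines of the IL-6 family act on it through STAT3.

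The libraries held 20.64 to 46.84 M reads, as recovered from the spacing of the low deposited values, with vehicle 3 the deepest, vehicle 1 next at 33.02 M and the other 5 between 20.64 and 24.76 M. The 20 highest genes took 27.9% of the summed RPKM in vehicle 3 and 31.3% to 35.7% in the other 6. Correlation across genes between pairs of libraries ran from 0.917 (vehicle 3 with vehicle 7) to 0.994 (vehicle 4 with vehicle 5), and no pair held the same values. The tissue label was checked against 10 genes of gastrocnemius fibres, which summed to between 42290 and 66658 RPKM per library. Of 13 lymphocyte genes, Ighm and Igkc were listed below the filter and the other 11 were not analysed here. Of 11 genes of epithelial tumour cells Lgals4 was kept, at 4.03 to 10.9 RPKM, Cdh1 and Muc1 were below the filter and the other 8 were not analysed here. Vehicle 3 and vehicle 7 stood apart from the rest in many of the results below, so counts of called genes that moved by over 1.5 times without either are also given without it. Slopes of single genes, correlations within lists and clusters are given for all 7 libraries.

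The SD of log2(RPKM + 1) over the 7 libraries had a median of 0.22, with a lower decile of 0.12 and an upper decile of 0.44. Expressed as a ratio of the highest to the lowest library, the median gene spanned 1.65-fold, 2624 genes (27.4%) spanned at least 2-fold and 333 at least 4-fold. Read sampling was small beside this spread. In 9517 genes with an annotated length, the counting SD estimated from the recovered reads had a median of 0.04, and the observed SD exceeded it in 99.7% of them. That estimate covers counting error only. The median SD was 0.21 in the 3180 genes with a mean of 1 to 5 RPKM and 0.25 in the 523 genes with a mean of at least 100 RPKM, and the upper decile was 0.38 and 0.545 in the same classes. The filter can remove a wide gene through its lowest library, and the 1860 genes left out that reached 1 RPKM in some libraries had a median SD of 0.25. The genes just inside it included Cnrip1 (lowest library 1.0008 RPKM, SD 0.18) and Xrcc5 (lowest 1.0008 RPKM, SD 0.69), and those just outside it Zmym1 (lowest 0.9995 RPKM, SD 0.09) and Spata1 (lowest 0.9985 RPKM, SD 0.13).

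A single axis carried most of the variance. The first principal component (PC1) of the gene-centred values held 61.2% of the variance, the second 14.6% and the third 10.5%. Vehicle 3 scored 36.3 on PC1, vehicles 5, 4 and 1 scored 12.6, 9.5 and 9.0, and vehicles 6, 2 and 7 scored -16.9, -20.2 and -30.2, so that the libraries ran from vehicle 3 at one end to vehicle 7 at the other. Vehicle 3 alone held 40.5% of the squared PC1 scores. Leaving out each library in turn kept the share between 58.9% and 68.3%, and the direction of the axis kept a cosine of at least 0.916 with that of all 7 libraries, the lowest being without vehicle 3. Without vehicle 3 the summed variance of the genes was 77.8% of its value with all 7 libraries, and without vehicle 7 it was 88.3%. Vehicle 3 was the library farthest from the mean in 37.8% of genes and vehicle 7 in 24.2%.

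PC1 also followed library composition. Its score fell as the share of the 20 highest genes rose, with Pearson r = -0.957 (exact permutation p = 0.000198) and Spearman rho = -1.0 (p = 0.000397, exact permutation; these are the smallest p that r and rho can give with 7 libraries), and r was -0.862 without vehicles 3 and 7, the libraries farthest from the median share. Over the 6 relations tested between 3 components and these 2 measures, the adjusted p was 0.00119 for r and 0.00238 for rho. The share and the score come from the same values, so they are not independent measures. Against log2 library size, PC1 had r = 0.724 (exact permutation p = 0.0641, adjusted p = 0.192) and rho = 0.536 (exact permutation p = 0.236, adjusted p = 0.471), and r was -0.0073 without vehicles 1 and 3, the deepest libraries, so that relation rests on them. Rescaling the libraries by the median of gene ratios, which takes a composition shift of all genes out, left the PC1 share at 61.6%; it moved all genes by between -0.10 (vehicle 7) and 0.06 (vehicle 2) on the log2 scale. The part of composition and depth in the axis was not tested beyond these values. When the 7 control libraries were projected onto the same axis they scored between -49.4 and -44.6, beyond vehicle 7, which lay nearest to them. The 20 highest genes took 43.5% to 46.3% of the summed RPKM in control, against 27.9% to 35.7% in C26 vehicle. The part of composition in the projected scores was not tested.

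**Figure D1:**
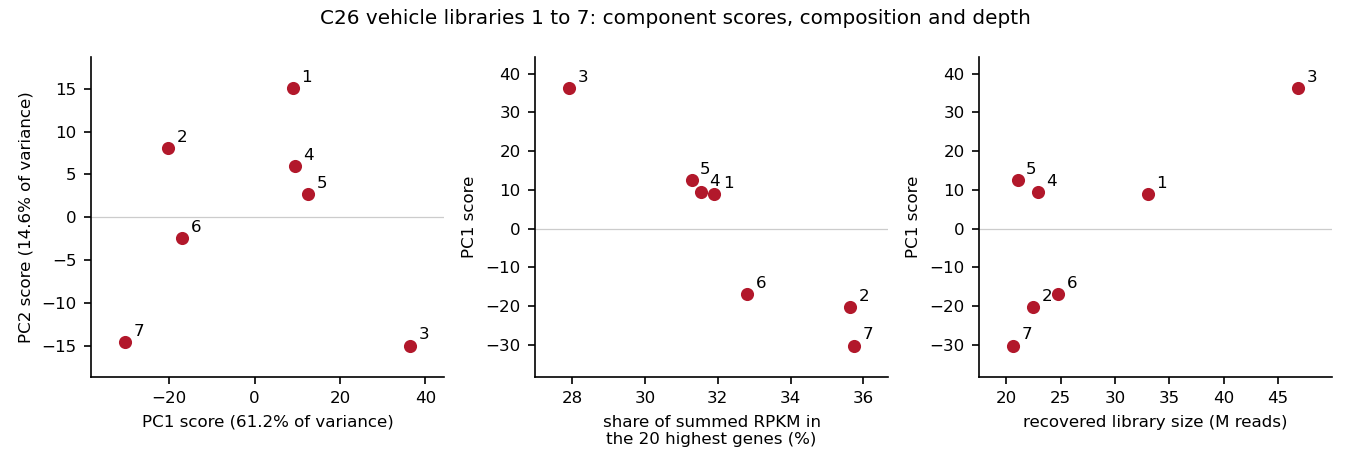
Scores of C26 vehicle libraries 1 to 7 on the first and second principal components of log2(RPKM + 1) over 9573 genes (left), and the PC1 score against the share of summed RPKM in the 20 highest genes (middle, %) and against recovered library size (right, M reads). Each point is 1 library. Vehicle 3 sits at 36.3 and vehicle 7 at -30.2 on PC1, with the smallest and the largest share of the 20 highest genes.

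The genes of largest spread came from several cell types and roles. Among named genes the widest was Gpnmb, a glycoprotein of macrophages and lysosomal stress, at a lowest value of 1.22 RPKM (vehicle 2), a median of 21.8 and a highest of 62.4 RPKM (vehicle 3), a span of 51.0-fold and an SD of 1.85. Only the predicted gene Gm10309, with no function given here, was wider, from 1.29 RPKM in vehicle 7 to 92.5 RPKM in vehicle 3 (SD 2.10); it was named after its values were seen. Gpnmb was high in vehicles 3 and 1, intermediate in vehicles 4 and 5 (21.8 and 22.9 RPKM) and below 5 RPKM in vehicles 2, 6 and 7.

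Some fat-cell genes and secreted proteins formed one group of wide genes, those named here being lowest in vehicle 3 and highest in vehicle 7. Adipoq, which encodes the fat-cell hormone adiponectin, had 1.05 RPKM in vehicle 3, a median of 6.24 and 38.8 RPKM in vehicle 7. Cfd, the complement protease adipsin made by fat cells, ran from 9.57 through a median of 44.0 to 243 RPKM. Hp, the plasma haemoglobin scavenger haptoglobin, ran from 16.1 through 76.0 to 328 RPKM, Cyp2e1, a cytochrome P450, from 1.27 through 9.21 to 57.4 RPKM, and Angptl4, an inhibitor of lipoprotein lipase, from 1.17 through 6.41 to 17.2 RPKM. In each of these genes vehicles 1 and 6 also lay above vehicles 4 and 5. In whole muscle, fewer cells of a type and less RNA per cell cannot be told apart. The adipocyte list as a whole had 6 of 14 genes kept, and its summed level ran from 313 to 818 RPKM. Plin1 and Cidec, which define fat cells, were below the filter. Adipoq and Cfd were the 2 widest members kept, and the list did not vary as a block. Of its 15 pairs 8 had a positive r, with a mean of 0.16 and a lowest of -0.79.

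Antigen presentation genes had a different order. H2-Aa, a class II histocompatibility chain of antigen-presenting cells, had 1.56 RPKM in vehicle 3, a median of 5.03 and 39.4 RPKM in vehicle 6. Its partner H2-Ab1 ran from 1.19 through 3.46 to 24.3 RPKM, and the class II pseudogene H2-Ea-ps from 1.84 through 3.21 to 29.9 RPKM, with vehicle 6 highest in both. Vehicle 7, highest for Adipoq and Cfd, came second at 13.2 RPKM of H2-Aa. Any reads shared between genes of this family may have been split by the counting, which was not tested.

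Genes of the muscle fibre itself were also among the widest. Casq1, the calcium store protein of fast fibres, had 12.1 RPKM in vehicle 3, a median of 60.6 and 216 RPKM in vehicle 7, with vehicle 2 at 183 and vehicle 6 at 121 RPKM. Mss51, a muscle gene linked to mitochondrial respiration, ran from 10.3 through 33.5 to 127 RPKM, and Mylk4, a myosin light chain kinase family member, from 2.86 through 9.94 to 40.6 RPKM, highest again in vehicle 7. The opposite order was seen in Slc25a33, a mitochondrial pyrimidine nucleotide carrier, with 6.94 RPKM in vehicle 7, a median of 27.3 and 125 RPKM in vehicle 3. It was shared by Mical2, an actin-oxidising enzyme (3.53, 16.3 and 45.4 RPKM), Maff, a small MAF factor (4.71, 10.2 and 61.4 RPKM), and Snhg1, a host of small nucleolar RNAs (13.2, 18.0 and 124 RPKM), all lowest in vehicle 7 and highest in vehicle 3. Arl4d, a small GTPase of the ARF family, stood out in vehicle 3 alone, with 76.3 RPKM against 3.13 to 12.1 RPKM in the other 6 libraries.

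Of the 50 genes with an SD of at least 1, vehicle 3 was highest in 25 and lowest in 19, and vehicle 7 was highest in 16 and lowest in 20. Over all genes kept, vehicle 3 was highest in 26.7% and lowest in 27.4%, and vehicle 7 in 22.8% and 21.2%. Both extremes fell on these libraries in 31 of the 50. At the other end, the steadiest genes with a mean of at least 10 RPKM included Atp6ap1, a subunit of the lysosomal proton pump, which kept between 47.1 and 50.8 RPKM (SD 0.04).

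A panel of 12 genes of different roles was followed in every library. Trim63 (ENSMUSG00000028834, GRCm38 chr4:134315120-134329629, plus strand) had 1346 RPKM in vehicle 7, a median of 2543 and 3958 RPKM in vehicle 3, with a mean of 2589 ± 810 RPKM (SD, n = 7). Fbxo32 (chr15:58175879-58214932, minus strand) had its extremes in the same libraries, at 490 and 1132 RPKM around a median of 688. Trim63 therefore spanned 2.94-fold and Fbxo32 2.31-fold among libraries of one group, and the SD of Trim63 was larger than that of 92.1% of genes.

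Fkbp5, a co-chaperone induced by glucocorticoids, ran from 41.8 RPKM in vehicle 7 through a median of 103 to 118 RPKM in vehicle 5. Pde4d (chr13:108449948-109953461), a phosphodiesterase that breaks down cyclic AMP and a target of rolipram, ran from 18.3 RPKM in vehicle 7 through 29.0 to 60.6 RPKM in vehicle 3. Dbp, an output factor of the circadian clock, ran the other way, with 3.19 RPKM in vehicle 5, a median of 5.23 and 8.55 RPKM in vehicle 2. Ppargc1a, a coactivator of mitochondrial genes, was lowest in vehicle 2 (3.48 RPKM) and highest in vehicle 5 (10.1 RPKM), with vehicle 1 also low at 4.03 RPKM.

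Citrate synthase, Cs (chr10:128337734-128362479), split the libraries into 2 sets. Vehicles 2, 6 and 7 had 217, 223 and 217 RPKM, and vehicles 1, 3, 4 and 5 had 156, 124, 161 and 156 RPKM. Col1a1, a chain of type I collagen made by fibroblasts (chr11:94936224-94953042), was highest in the first set: 18.7 RPKM in vehicle 7, 13.4 in vehicle 6 and 8.72 in vehicle 2, against 3.39 to 5.55 RPKM in the others.

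The other panel genes had a smaller spread. Myh4, the myosin heavy chain of the fastest fibres, kept between 3874 and 4878 RPKM, an SD of 0.13 that was larger than that of only 14.1% of genes. Socs3, the feedback inhibitor that STAT3 induces, kept between 30.8 and 48.0 RPKM around a median of 41.8, lowest in vehicle 6, with an SD of 0.19, below the median of all genes. Nr4a1, a nuclear receptor of the immediate early response, kept between 63.7 and 98.9 RPKM (SD 0.23, larger than that of 52.3% of genes). Mt2, a zinc-binding metallothionein, ran from 2348 RPKM in vehicle 7 through 3379 to 4323 RPKM in vehicle 1, an SD larger than that of 71.3% of genes; 73.5% of its exons overlap an antisense gene, and the strand setting of the counting is not known here.

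**Figure D2:**
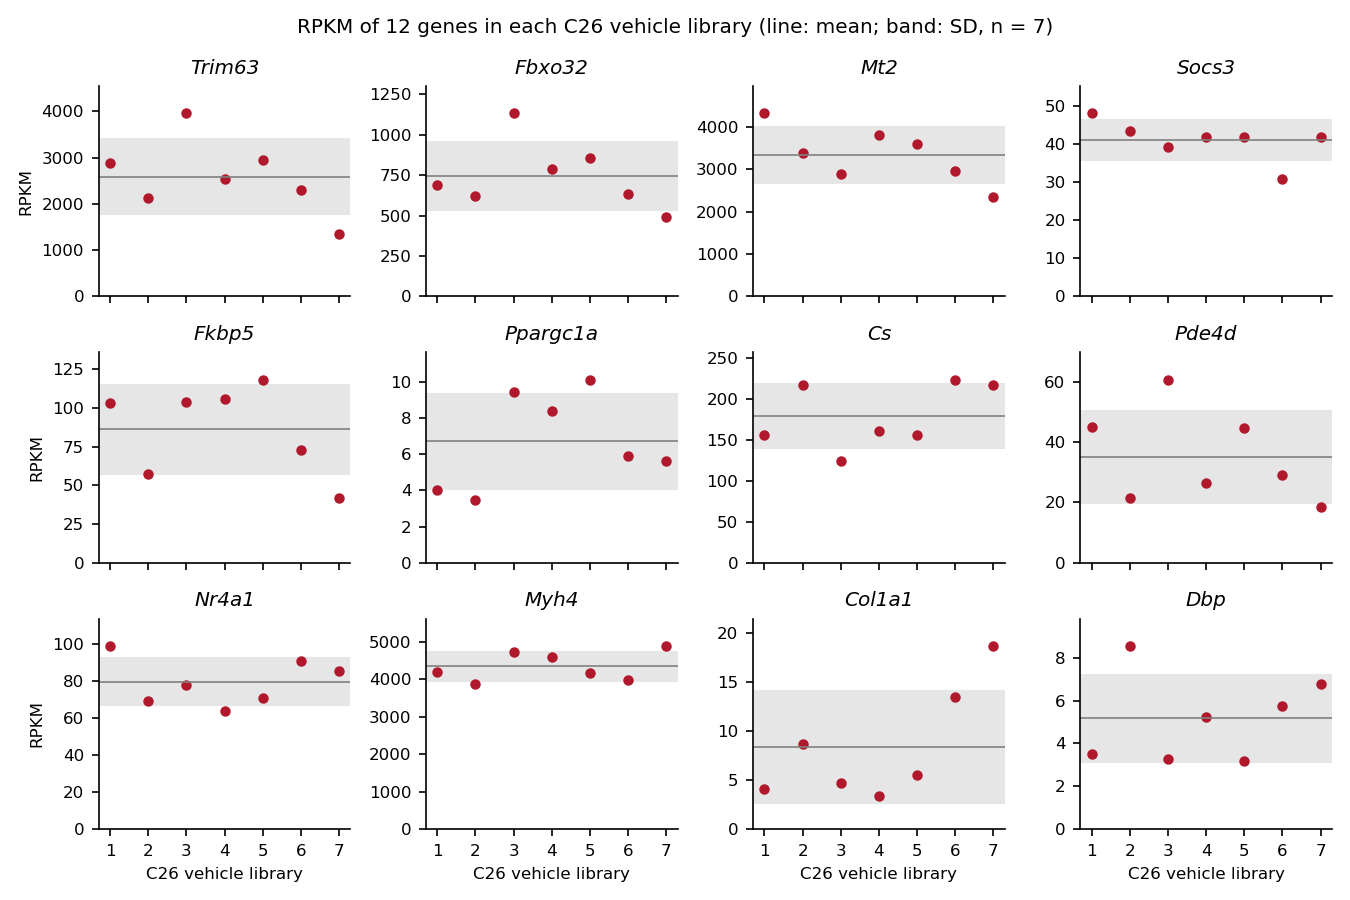
RPKM of 12 genes in C26 vehicle libraries 1 to 7. Points are single libraries, the line is the mean and the band the SD (n = 7), and each vertical axis starts at 0. Trim63 and Fbxo32 are highest in vehicle 3 and lowest in vehicle 7, while Myh4 stays between 3874 and 4878 RPKM.

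Of the 66 pairs of these genes, none passed an adjusted p of 0.05 by exact permutation of Pearson r (smallest adjusted p = 0.103), and none by Spearman rho; 19 and 15 had an unadjusted p below 0.05. For Trim63 with Pde4d, r was 0.921 (exact permutation p = 0.00218, adjusted p = 0.103) and rho 0.929 (exact permutation p = 0.00675, adjusted p = 0.148), and r was 0.931 without vehicles 3 and 7. For Trim63 with Fbxo32, r was 0.934 (exact permutation p = 0.00556, adjusted p = 0.103) and rho 0.964 (exact permutation p = 0.00278, adjusted p = 0.148), and r fell to 0.750 without vehicles 3 and 7. For Trim63 with Fkbp5, r was 0.886 (exact permutation p = 0.00456, adjusted p = 0.103) and rho 0.821 (exact permutation p = 0.0341, adjusted p = 0.188), and r was 0.931 without vehicles 3 and 7. For Pde4d with Dbp, r was -0.922 (exact permutation p = 0.00754, adjusted p = 0.103) and rho -0.821 (exact permutation p = 0.0341, adjusted p = 0.188), and r was -0.962 without vehicles 3 and 7. No r is given for the 21 pairs with Cs or Myh4, whose libraries fell into separate sets.

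A fit across all genes asked which of them varied in step with Trim63. On a slope per log2 unit of Trim63 (limma, adjusted p below 0.05), 1037 of 9572 genes rose with it (10.8%) and 940 fell (9.82%). The genes with the smallest p were Hoga1, a mitochondrial enzyme of hydroxyproline breakdown, Bcl2l1, the anti-apoptotic BCL-XL, Klf15, a glucocorticoid-induced factor of muscle catabolism, and Ip6k3, an inositol phosphate kinase of muscle, with slopes of 1.85 ± 0.19, 1.70 ± 0.18, 1.63 ± 0.18 and 1.32 ± 0.15 (SE; limma adjusted p = 0.0038, 0.0038, 0.0038 and 0.0042). Klf15 had 20.8 RPKM in vehicle 7, a median of 53.0 and 130 RPKM in vehicle 3. On the falling side were Tmem100, a membrane protein of vessel growth, Gamt, the last enzyme of creatine synthesis, Mef2c, a muscle transcription factor, and Tnk2, a tyrosine kinase, with slopes of -1.71 ± 0.17, -1.59 ± 0.18, -1.71 ± 0.19 and -1.34 ± 0.16 (SE; limma adjusted p = 0.0038, 0.0038, 0.0038 and 0.0042). Mef2c had 5.22 RPKM in vehicle 3, a median of 15.4 and 33.6 RPKM in vehicle 7.

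The counts changed when single libraries were left out and when library size was added to the fit. Without vehicle 3 the fit called 619 genes in all, and without vehicle 5, 1296. With log2 library size as a covariate it called 0, while 2088 genes had an unadjusted p below 0.05; an exact permutation test of r called 763. The part of depth in the slopes was not tested beyond this. Under median-of-ratios scaling 1396 genes rose and 596 fell, so that 70.1% of calls were on the rising side against 52.5% as deposited.

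Members of the ubiquitin ligase and atrophy list did not vary as a block. All 21 were kept, with a median SD of 0.38 against 0.22 for all genes, and the mean Pearson r between pairs of members was 0.12, against 0.01 between all pairs of genes kept. Beside Trim63 itself, 8 of 20 rose with it and 3 fell, where 10.8% of all genes rose and 9.82% fell. Fbxo32 rose with a slope of 0.75 ± 0.15 (SE, limma adjusted p = 0.0103). Asb2, a ligase subunit of muscle remodelling, fell with a slope of -1.73 ± 0.39 (SE, limma adjusted p = 0.0195), with 244 RPKM in vehicle 7 and a lone low of 32.7 RPKM in vehicle 3. Eda2r, a receptor of the TNF family tied to muscle wasting, fell with a slope of -1.35 ± 0.29 (SE, limma adjusted p = 0.015), at 2.95 RPKM in vehicle 3, a median of 7.12 and 16.7 RPKM in vehicle 2. The third member that fell was Fbxo21, a ligase F-box protein, named after its values were seen. Without vehicle 3 the counts were 4 rising and 1 falling, and without vehicle 7, 4 rising and 4 falling.

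FOXO factors bind the core letters GTAAACA. The windows from 250 bases before to 50 after the start of transcription (RefSeq, GRCm38.p6) of Trim63 and Eda2r are shown because both hold that core on one strand while the genes varied in opposite directions across the libraries. Capitals mark the core, which reads TGTTTAC on the strand printed, 5′ to 3′. The Trim63 window is chr4:134314870-134315169 (plus strand) and the Eda2r window chrX:97377160-97377459 (minus strand).
Trim63: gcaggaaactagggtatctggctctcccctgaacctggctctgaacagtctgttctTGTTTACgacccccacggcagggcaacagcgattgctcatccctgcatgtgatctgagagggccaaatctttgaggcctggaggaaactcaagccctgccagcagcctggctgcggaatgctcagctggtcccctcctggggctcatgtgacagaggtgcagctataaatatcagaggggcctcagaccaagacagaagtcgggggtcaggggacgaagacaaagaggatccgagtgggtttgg
Eda2r: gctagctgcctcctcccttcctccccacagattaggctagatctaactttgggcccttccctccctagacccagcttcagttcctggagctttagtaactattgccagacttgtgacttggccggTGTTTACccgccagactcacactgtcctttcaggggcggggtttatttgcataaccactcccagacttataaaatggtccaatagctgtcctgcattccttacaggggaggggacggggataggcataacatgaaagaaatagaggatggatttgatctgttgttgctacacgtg
Searched on both strands, the core was in 3 of the 18 kept list members with a window (Trim63, Eda2r and Mdm2, the last named after its values were seen), and in 3.04% of the 7478 kept genes with one. A match of letters is a description of the window and not a site.

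The proteasome was the most uniform large list. All 31 subunits were kept, all 465 pairs had a positive r with a mean of 0.92, and the median SD was 0.34. The list score, the average of its genes after each was centred on its 7-library mean on the log2 scale, was -0.595 in vehicle 7, -0.20 and -0.17 in vehicles 2 and 6, and 0.17 to 0.28 in vehicles 1, 3, 4 and 5. Vehicle 3, highest for Trim63, was therefore not highest for the proteasome. Psmc4, an ATPase of the regulatory particle, had 93.1 RPKM in vehicle 7, a median of 252 and 263 RPKM in vehicle 4. Psmd4, a ubiquitin receptor of the same particle, ran from 175 RPKM in vehicle 7 through 377 to 426 RPKM in vehicle 3, and Psma3, a subunit of the core ring, only from 46.0 through 56.6 to 62.9 RPKM.

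Of the 31 subunits 23 rose with Trim63 and 0 fell, beside 10.8% and 9.82% of all genes. The slopes were 1.10 ± 0.19 for Psmc4 and 0.96 ± 0.17 for Psmd4 (SE; limma adjusted p = 0.0079 for each), and that of Psma3 was 0.19 ± 0.14 (SE, limma adjusted p = 0.34). Without vehicle 7 only 2 rose, without vehicle 5, 12, without vehicle 2, 14 and without vehicle 3, 25. With library size as a covariate 0 rose, as for all genes. Against Col1a1 22 of 31 fell and 0 rose, where 3.6% of all genes fell and 4.48% rose. Without vehicles 7, 6, 5 and 1 in turn the falling counts were 0, 2, 3 and 12.

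The antioxidant response core TGACNNNGC, through which NFE2-family factors including the proteasome regulator NRF1 act, was in 4 of the 25 subunits with a window, on either strand, and in 17.3% of the 7478 kept genes with one. The window of Psmb5, the chymotrypsin-like catalytic subunit (chr14:54617946-54618245, minus strand), is shown as an example chosen after its values were seen, with the core in capitals.
Psmb5: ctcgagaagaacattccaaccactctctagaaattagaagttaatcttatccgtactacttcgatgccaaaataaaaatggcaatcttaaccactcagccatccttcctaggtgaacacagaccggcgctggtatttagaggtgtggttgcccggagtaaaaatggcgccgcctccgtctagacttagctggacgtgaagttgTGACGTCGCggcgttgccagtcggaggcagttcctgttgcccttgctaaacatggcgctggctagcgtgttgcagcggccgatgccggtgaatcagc

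Glucocorticoid targets varied widely and mostly with Trim63. All 16 were kept, with a median SD of 0.51, and 10 rose with Trim63 while 1 fell, beside 10.8% and 9.82% of all genes. Fkbp5 had a slope of 1.01 ± 0.20 (SE, limma adjusted p = 0.0095). Sesn1, a stress-induced brake on mTORC1, had 11.9 RPKM in vehicle 7, a median of 27.8 and 138 RPKM in vehicle 3, and a slope of 2.14 ± 0.37 (SE, limma adjusted p = 0.0092). The member that fell was Angptl4, at -2.04 ± 0.59 (SE, limma adjusted p = 0.042), which is also made by fat cells. The rising count was 5 without vehicle 3 and 6 without vehicle 7.

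In the list of insulin, AKT and FOXO genes, 6 of 19 rose with Trim63 and 1 fell, with 10.8% and 9.82% of all genes doing so. The one that fell was Igfbp5, a binding protein of insulin-like growth factors, with 4.13 RPKM in vehicle 3, a median of 7.16 and 27.6 RPKM in vehicle 7 and a slope of -1.69 ± 0.21 (SE, limma adjusted p = 0.0053). The rising count was 2 without vehicle 3 and 3 without vehicle 5. Among 22 autophagy and lysosome genes 5 rose (10.8% of all genes) and 0 fell, and 2 rose without vehicle 5 and 3 without vehicle 2 or vehicle 3. Gabarapl1, an ATG8-family protein of the autophagosome, had 82.6 RPKM in vehicle 7, a median of 189 and 460 RPKM in vehicle 3, with a slope of 1.56 ± 0.20 (SE, limma adjusted p = 0.0052); 28.3% of its exons overlap an antisense gene. Ctsl, the lysosomal protease cathepsin L, peaked instead in vehicle 4, at 166 RPKM, with 47.0 RPKM in vehicle 7 and a slope of 1.05 ± 0.28 (SE, limma adjusted p = 0.030). Becn1, a core autophagy gene, kept between 12.9 and 15.4 RPKM.

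Of 20 genes of the IL-6 and STAT3 list 5 rose with Trim63 and 3 fell, beside 10.8% and 9.82% of all genes, so the falling count is near the background. Saa1, a serum amyloid A protein, had 5.71 RPKM in vehicle 2, a median of 13.1 and 68.6 RPKM in vehicle 3, with a slope of 2.16 ± 0.48 (SE, limma adjusted p = 0.019), while Hp had a slope of -2.56 ± 0.59 (SE, limma adjusted p = 0.021). Stat3 itself kept between 48.3 and 58.9 RPKM (SD 0.09). Without vehicle 3 or without vehicle 7 the falling count was 0, and without vehicle 5 it was 1. Of 7 genes of metallothioneins and zinc transport, 3 rose with Trim63 and 0 fell, and 0 rose without vehicle 7. Slc39a14, the zinc importer ZIP14 induced in cachectic muscle, ran from 19.6 RPKM in vehicle 7 through 104 to 151 RPKM in vehicle 5, with a slope of 1.93 ± 0.41 (SE, limma adjusted p = 0.017).

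The same fit on Cs called more genes. With Cs 1291 of 9572 genes rose (13.5%) and 1624 fell (17.0%), and since Cs split the libraries into 2 sets these slopes rest on the difference between vehicles 2, 6 and 7 and the other 4. The fits on Trim63, Cs and Col1a1 use the same 7 libraries, so they are not independent of each other. Among the genes of smallest p were Coq7, an enzyme of ubiquinone synthesis, and Smtnl2, a smoothelin-like actin-binding protein, which rose with slopes of 2.27 ± 0.17 and 2.45 ± 0.19 (SE; limma adjusted p = 0.00019 each). Smtnl2 had 83.0, 72.2 and 82.0 RPKM in vehicles 2, 6 and 7, and 19.3 to 37.1 RPKM in the other 4. Mical2 fell with a slope of -3.83 ± 0.28 (SE, limma adjusted p = 0.00019), and Ranbp9, a scaffold of a ubiquitin ligase complex, with -2.91 ± 0.26 (SE, limma adjusted p = 0.00033). Without vehicle 3 the fit on Cs called 1320 genes, and with library size as a covariate 805.

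Nuclear genes of the respiratory chain had a spread slightly above that of all genes and mostly varied together. In complex I, which takes electrons from NADH, 34 of 34 subunits were kept, the median SD was 0.26 and the mean r between members 0.82, and 16 rose with Cs and 0 fell. In complexes II to V 39 of 39 were kept, the median SD was 0.24 and the mean r 0.79, and 21 rose with Cs and 0 fell. Over all genes 13.5% rose with Cs and 17.0% fell. Cox7a1, the muscle form of a cytochrome c oxidase subunit, had 67.0 RPKM in vehicle 3, a median of 148 and 228 RPKM in vehicle 6, with a slope on Cs of 1.82 ± 0.23 (SE, limma adjusted p = 0.00088).

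With Trim63, 5 of 34 subunits of complex I and 4 of 39 of complexes II to V fell and 0 rose, and the falling shares are near the 9.82% of all genes. Without vehicle 7 these were 16 and 16, without each of vehicles 2 to 6 between 0 and 2 in either list, and under median-of-ratios scaling 0 and 0. The scores of the 2 lists had r = -0.674 and -0.678 with Trim63, and the median r of members was -0.625 and -0.659. Counts near the background therefore do not mean that these lists varied apart from Trim63. With Cs, the rising counts without vehicle 3 were 3 and 4, against 28 and 31 without vehicle 1, 9 and 12 without vehicle 2, and 13 and 13 without vehicle 5. All of these lists scored lowest in vehicle 3, at -0.43 for complex I and -0.42 for complexes II to V, where vehicle 7 scored 0.11 for each. The 7 mitochondrially encoded mRNAs kept, of 13 listed, ran instead from -0.25 in vehicle 3 to 0.32 in vehicle 7, all 21 pairs with a positive r. Among the 13 kept regulators of mitochondrial genes the mean r between members was 0.09. Esrra, a nuclear receptor that drives respiratory genes, had a lone low of 12.0 RPKM in vehicle 3 against 19.9 to 24.7 RPKM in the others.

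Glycolysis and glycogen genes were lowest in vehicle 3. Of 21 members 11 rose with Cs and 2 fell (13.5% and 17.0% of all genes), and without vehicle 3, 7 rose and 1 fell. With Trim63 8 fell and 1 rose (9.82% and 10.8% of all genes); the falling count was 2 without vehicle 3, and under median-of-ratios scaling 5 fell and 3 rose. Pgm1, which links glycogen to glycolysis, had 39.2 RPKM in vehicle 3, a median of 77.7 and 200.4 RPKM in vehicle 7. Phkg1, the catalytic subunit of muscle phosphorylase kinase, had 24.0 RPKM in vehicle 3 and 105 RPKM in vehicle 7, around a median of 48.4.

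Of 16 fast sarcomere genes 8 rose with Cs and 1 fell, beside 13.5% and 17.0% of all genes, and 3 rose without vehicle 3 and 5 without vehicle 2. With Trim63 7 fell and 1 rose, beside 9.82% and 10.8% of all genes. Under median-of-ratios scaling 1 fell with Trim63 and 1 rose, and without vehicle 3, 1 fell. Myh2, the myosin of oxidative fast fibres, had 114 RPKM in vehicle 5, a median of 211 and 382 RPKM in vehicle 6, while Myh4 had slopes of -0.15 ± 0.21 on Cs and -0.03 ± 0.15 on Trim63 (SE; limma adjusted p = 0.60 and 0.91). Mb, the oxygen store myoglobin, had 197 RPKM in vehicle 3, a median of 689 and 1240 RPKM in vehicle 6; 31.9% of its exons overlap an antisense gene.

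Of 26 genes of cyclic AMP signalling 21 were kept, with a mean r of -0.001 between members; 4 rose and 4 fell with Trim63, and 4 rose and 4 fell with Cs. Over all genes 10.8% rose and 9.82% fell with Trim63, and 13.5% rose and 17.0% fell with Cs. The counts with Cs are thus near the background. Those with Trim63 are above it, on few genes and equally in both directions. Without vehicle 3, 2 rose and 1 fell with Trim63, and under median-of-ratios scaling 5 rose and 2 fell. Pde4d rose with Trim63 with a slope of 1.17 ± 0.19 (SE, limma adjusted p = 0.0067) and the related Pde4b fell with -1.15 ± 0.25 (SE, limma adjusted p = 0.016), from 10.4 RPKM in vehicle 3 through a median of 24.0 to 45.7 RPKM in vehicle 2. Pkia, an inhibitor of protein kinase A, had 26.2 RPKM in vehicle 3, a median of 58.0 and 98.3 RPKM in vehicle 7, with a slope of -1.20 ± 0.18 (SE, limma adjusted p = 0.0066). Crem, a CREB-family factor, kept between 1.25 and 1.42 RPKM. Among 19 immediate early and CREB-induced genes kept, 1 rose with Trim63 (Maff; 0 without vehicle 3) and 0 fell, and their median SD was 0.43. In the clock list, 4 of 15 rose with Trim63 and 1 fell (3 and 0 without vehicle 3, 10.8% and 9.82% of all genes): Cry2, a clock repressor, had a slope of 1.27 ± 0.16 and Nr1d1, the nuclear receptor REV-ERB alpha, of 1.10 ± 0.16 (SE; limma adjusted p = 0.0053 and 0.0060), and Dbp of -0.75 ± 0.22 (SE, limma adjusted p = 0.037). The time of day at which each muscle was taken is not known here.

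Cytosolic ribosomal proteins had a median SD of 0.20, slightly under that of all genes, but a mean r of 0.85 over 38 members, with 699 of 703 pairs positive. Their score was highest in vehicles 1 and 3, at 0.28 and 0.18, the libraries with the most reads, and lowest in vehicle 7 at -0.26. With Trim63 5 of 38 rose, near the 10.8% of all genes, and 0 fell. Further, 13 rose under median-of-ratios scaling and between 0 and 3 without each of vehicles 2 to 7. The list score had r = 0.856 with Trim63, and the median r of its members with Trim63 was 0.82. The count of calls near the background therefore does not mean that the list varied apart from Trim63. Many of these genes have processed pseudogenes that can share reads with them.

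Connective tissue was examined by a fit on Col1a1. With Col1a1, 429 of 9572 genes rose (4.48%) and 345 fell (3.6%). Of these 774 genes, 598 were also called with Trim63, all with the opposite slope, and 594 with Cs, 0 with the opposite slope. Of the 1977 genes called with Trim63, 1752 were also called with Cs, all with the opposite slope. Trim63, Cs and Col1a1 had r of 0.93, -0.977 and -0.83 with PC1. Their fits therefore describe largely the same genes and are not separate axes. Without vehicle 7 the fit called 0 genes (1324 with an unadjusted p below 0.05), without vehicle 6, 45, without vehicle 5, 145, without vehicle 1, 357, and without vehicle 3, 1181; with library size as a covariate it called 39. An exact permutation test of r called 0 genes, with 2457 below an unadjusted p of 0.05. Under median-of-ratios scaling 35.8% of the calls rose, against 55.4% as deposited. The result thus depends on vehicle 7, the library with the most Col1a1.

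The smallest p were those of Col1a2 and Col3a1, chains of type I and III collagen, Fstl1, a secreted follistatin-like protein, and Ctsh, a lysosomal protease, with slopes of 0.98 ± 0.08, 1.36 ± 0.13, 0.85 ± 0.09 and 0.67 ± 0.08 (SE; limma adjusted p = 0.0024, 0.0075, 0.0085 and 0.011). Col3a1 had 4.38 RPKM in vehicle 3, a median of 9.35 and 39.4 RPKM in vehicle 7, with vehicle 6 at 26.8 and vehicle 2 at 18.9 RPKM. On the falling side Gnmt, a methyltransferase of glycine, had a slope of -0.88 ± 0.10 and Malsu1, a mitochondrial ribosome assembly factor, of -0.66 ± 0.08 (SE; limma adjusted p = 0.011 and 0.013).

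Marker lists of other cell types were scored in each library, and the amount of each cell type was not measured. Of 20 fibroblast and matrix genes 16 were kept, all 120 pairs with a positive r (mean 0.83), and their summed level ran from 285 to 743 RPKM; the score was 1.06 in vehicle 7 and 0.56 in vehicle 6, against -0.52 to 0.02 in the other 5. With Trim63 12 of 16 fell (9.82% of all genes) and 0 rose, and without vehicle 7, 2 fell, without vehicle 3, 6 and without vehicle 5, 8. Tendon genes (5 of 10 kept, summed level 47.8 to 153 RPKM) scored 0.99 and 0.71 in the same libraries and -0.39 to -0.30 in the rest, with Scx and Tnmd, which define tendon cells, below the filter.

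Nerve genes were highest in vehicle 7. Pmp22, a protein of peripheral myelin, had 36.0 RPKM there and 11.2 to 15.6 RPKM in the other 6. The list (6 of 11 kept, summed level 26.3 to 88.8 RPKM) scored 0.94 in vehicle 7 and -0.34 to 0.09 elsewhere. Its members Sox10, S100b, Ncmap and Cldn19 were below the filter. Macrophage genes (9 of 12 kept, 79.3 to 220 RPKM) scored 0.74 in vehicle 7 and -0.50 in vehicle 1, while the member of largest spread, Cd68, had 23.1 RPKM in vehicle 3, its highest, and 7.10 RPKM in vehicle 7. Adgre1, Itgam and Ccr2 of that list were below the filter. Of its 36 pairs 29 had a positive r, and the lowest r was -0.655. Neutrophil markers were near the filter, with 2 of 13 kept and a sum of 4.84 to 18.2 RPKM, and Ly6g, which defines the cell, was not analysed here.

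Red-cell genes were the tightest list and had an order of their own. The 5 kept genes had a mean r of 0.97 and summed to between 310 and 1012 RPKM, with scores of 0.81 in vehicle 7 and 0.35 in vehicle 3 against -0.88 in vehicle 4. Hba-a1, a haemoglobin alpha chain, had 42.8 RPKM in vehicle 4, a median of 87.0 and 137 RPKM in vehicle 7; globin genes are near-identical copies, and reads may have been split among them. With none of Trim63, Cs and Col1a1 did any of the 5 pass. Of all genes, 10.8% rose and 9.82% fell with Trim63, 13.5% and 17.0% with Cs, and 4.48% and 3.6% with Col1a1. Beside these shares, 5 genes are too few for a count of 0 to set them apart. The part of these cell types in the slopes on Trim63, Cs and Col1a1 was not tested.

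**Figure D3:**
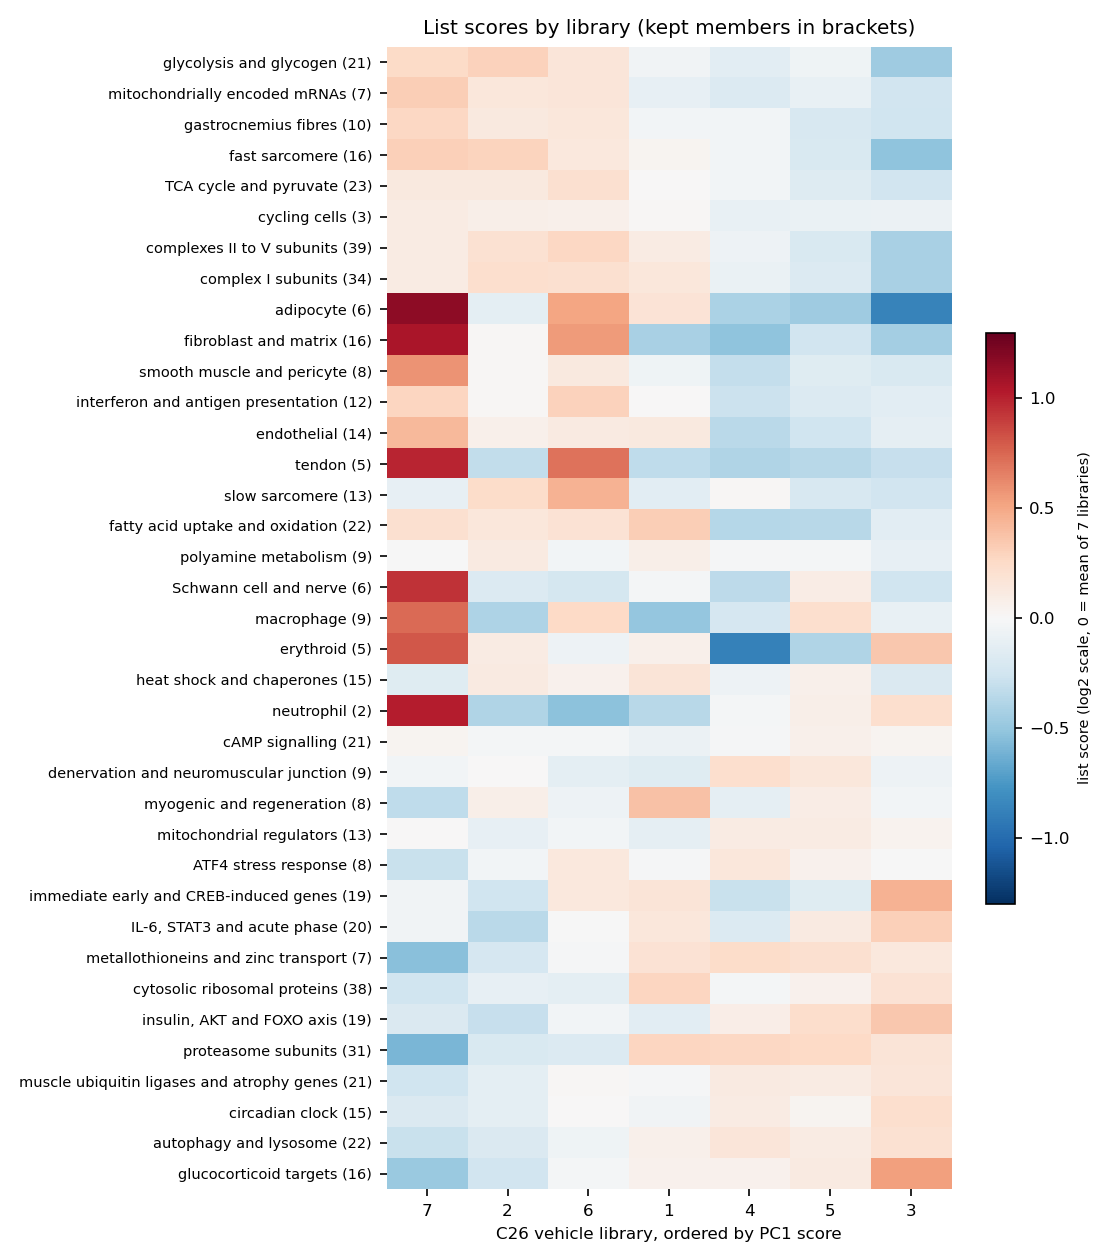
List scores of 37 gene lists (rows, kept members in brackets) in the 7 C26 vehicle libraries (columns, ordered by PC1 score from vehicle 7 to vehicle 3). Colour is the list score on the log2 scale, 0 being the average of the 7 libraries. Adipocyte, fibroblast and tendon lists are highest in vehicle 7, where proteasome subunits are lowest at -0.595, and glucocorticoid targets are highest in vehicle 3 at 0.53.

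Lists differed in co-variation as well as in spread. Proteasome, complex I and ribosomal protein lists varied by modest amounts (median SD 0.34, 0.26 and 0.20) with a high mean r (0.92, 0.82 and 0.85). Acute phase, myogenic and adipocyte lists varied more (median SD 0.48, 0.56 and 0.85) with a low mean r (0.09, 0.08 and 0.16). Fibroblast and erythroid lists were wide with a high mean r (median SD 0.58 and 0.54, mean r 0.83 and 0.97), and cyclic AMP signalling and mitochondrial regulators narrow with a low one (median SD 0.22 and 0.18, mean r -0.001 and 0.09). The 7 libraries, their depth and their composition are common to all these correlations, which are given as a description. Over all pairs of kept genes the mean r was 0.01 and the mean absolute r 0.46, and 3.98% of pairs had an absolute r above 0.9.

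**Figure D4:**
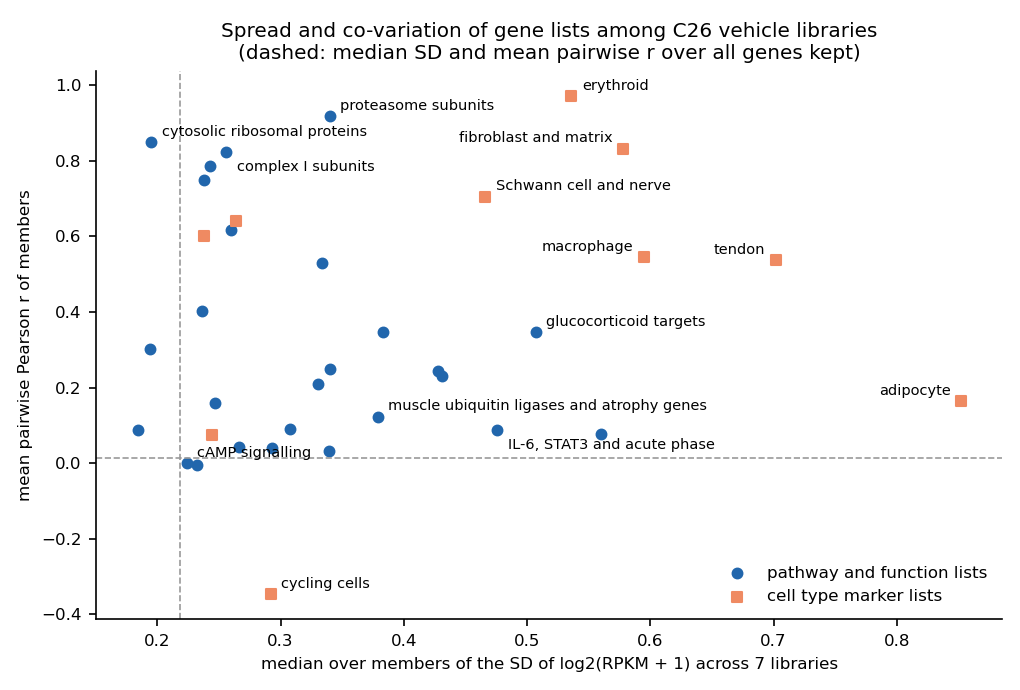
Median SD of log2(RPKM + 1) over the members of each list (x axis) against the mean Pearson r between its members (y axis) across the 7 C26 vehicle libraries; circles are pathway and function lists, squares cell type marker lists. Dashed lines give the median SD (0.22) and the mean pairwise r (0.01) over all genes kept. Erythroid markers and proteasome subunits have the highest mean r, 0.97 and 0.92.

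The fit on the IL-6 feedback gene differed from those on Trim63, Cs and Col1a1. With Socs3 as the term, limma called 0 genes in either direction (0.0% rising and 0.0% falling of 9572), 109 had an unadjusted p below 0.05, and an exact permutation test of r called 0 with 195 below 0.05. Socs3 had a small spread, with an SD of 0.19 and a counting SD of 0.026. Its r with PC1 was 0.176, against 0.93, -0.977 and -0.83 for Trim63, Cs and Col1a1. Why the slope on Socs3 called 0 genes was not tested. Library size as the term called 1 rising gene (0.0104%) and 3 falling genes (0.0313%) of 9573. The rising one was Gm44243, a predicted gene, with 21.2 RPKM in vehicle 3 and 1.83 to 5.83 RPKM in the others. The falling ones included Slc25a25, a mitochondrial carrier of ATP-magnesium, and Parm1, a membrane protein of muscle, with slopes of -1.63 ± 0.16 and -1.45 ± 0.18 per doubling of depth (SE; limma adjusted p = 0.027 and 0.043). Slc25a25 had 11.2 RPKM in vehicle 3 and 24.7 RPKM in vehicle 1, against 36.8 to 47.8 RPKM in the other 5. Without vehicle 5 the fit on library size called 663 genes, and without each of the others 0 or 1.

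The second component set vehicles 1 and 2 (scores 15.1 and 8.1) against vehicles 3 and 7 (-14.9 and -14.5). At its positive end, n-R5-8s1, a ribosomal RNA gene, had 56.3, 46.3 and 52.9 RPKM in vehicles 1, 2 and 4 and 16.2 and 24.6 RPKM in vehicles 3 and 7, and the predicted gene Gm23935 had 1571 and 1459 RPKM in vehicles 1 and 2 against 420 to 731 RPKM in the rest. At its negative end lay Thbs1, the matrix glycoprotein thrombospondin 1 (4.46 and 4.77 RPKM in vehicles 3 and 7, 1.70 to 3.55 RPKM in the rest), and Dcn, the proteoglycan decorin (120 RPKM in vehicle 1, 350 RPKM in vehicle 7). The part of ribosomal RNA reads in PC2 was not tested.

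Clustering of the 1000 genes of largest SD by their correlation gave 2 large clusters and 4 small ones. The largest, of 508 genes, scored 0.725 in vehicle 7 and -0.78 in vehicle 3 and held 13 fibroblast and matrix genes, 8 of glycolysis and 7 of macrophages; its leading genes included Sema4d, a semaphorin, Car3, a carbonic anhydrase of slow muscle and fat, and Igfbp5. The other large cluster, of 437 genes, scored 0.83 in vehicle 3 and -0.68 in vehicle 7. It held 8 genes of the insulin and FOXO list, 7 of the IL-6 and STAT3 list, 7 glucocorticoid targets and 6 atrophy genes. The cluster of 508 held 1, 2, 2 and 2 genes of these lists, and that of 437 held 1 glycolysis and 1 macrophage gene. Such counts stand beside the 508 and 437 of all 1000 genes that these clusters hold. Leading genes of the cluster of 437 included Ddx21, an RNA helicase of the nucleolus, Slc7a8, an amino acid carrier, and Eif3a, a translation initiation subunit. Eif3a had 57.4 RPKM in vehicle 7, a median of 124 and 230 RPKM in vehicle 3. A cluster of 32 genes, with Ccn2, Fos and Lbp among its leading genes, held all 5 red-cell genes and was highest in vehicle 7 (0.59). A cluster of 12 held Gm42418, Mir6236 and Lars2, loci known to collect reads of ribosomal RNA, highest in vehicle 1 (0.87) and vehicle 2 (0.41). A cluster of 7, led by Dupd1 and by Nos1, the neuronal nitric oxide synthase of the fibre membrane, was highest in vehicle 4 (0.68). A cluster of 4, with Txnip, a glucose-responsive inhibitor of thioredoxin, Junb and Gadd45g, was highest in vehicle 3 (1.22) and lowest in vehicle 5 (-0.82): Txnip had 824 RPKM in vehicle 3 and 153.5 RPKM in vehicle 5 around a median of 267. Clusters come from the same values that they describe, so no test goes with them.

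C26 vehicle libraries lay farther from each other than control libraries did. Over the 9065 genes that passed the same filter in all 14 libraries, the median absolute deviation of a library from the mean of the other 6 of its group was 0.181 ± 0.0523 in C26 vehicle and 0.112 ± 0.0139 in control (SD, n = 7 each, log2 scale). The difference was 0.0689 (two-sided exact permutation test of the group labels, p = 0.00117). Vehicles 3 and 7 had the largest values, 0.276 and 0.226, and vehicle 4 the smallest, 0.132, while controls ran from 0.0956 to 0.133, so the groups overlapped at vehicle 4 and control 1. Per gene, the SD was larger in C26 vehicle than in control in 76.0% of genes, with a median ratio of 1.49. Values within a group share libraries, which the permutation test does not take into account. Depth ran from 20.64 to 46.84 M reads in C26 vehicle and from 18.64 to 23.18 M in control. The difference was 0.0528 without vehicle 3 and 0.0614 without vehicle 7.

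**Figure D5:**
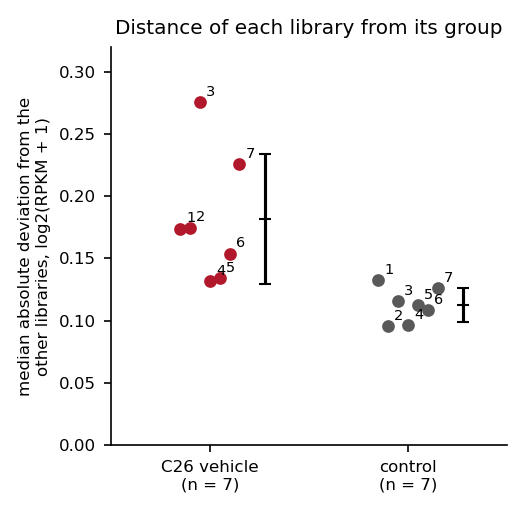
Distance of each library from its group in C26 vehicle (left) and control (right), n = 7 each: the median over 9065 genes of the absolute deviation of log2(RPKM + 1) from the mean of the other 6 libraries. Numbers name the libraries, and the bar gives the mean and SD (0.181 ± 0.0523 in C26 vehicle, 0.112 ± 0.0139 in control). Vehicle 3 and vehicle 7 are farthest out.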

How the data were processed

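Poly(A) RNA from gastrocnemius muscle was sequenced from a stranded library, per the labels' protocols. Per the submitters' processing notes, STAR 2.5.3a, featureCounts 1.6.4 and the mm10 build were used; the annotation, the strand setting and the tool that made the RPKM values are not given in the sources used here. A single RPKM table was deposited by the authors, with 13067 genes and 19 samples. Its low values were whole multiples of what 1 read is worth in 481 of 481 values checked (tolerance 0.05 read), which gave each library's size; a prior of 0.25 read was allowed for. Depth is given in the report, and counting SDs cover counting error only.

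Values were set to log2(RPKM + 1), so that fold changes of low genes are understated, and a gene was kept where each of the 7 C26 vehicle libraries had 1 RPKM or more. Slopes on Trim63, Socs3, Cs, Col1a1 and log2 library size were fitted over all kept genes with limma 3.58.1 (R 4.3.3) and adjusted by Benjamini-Hochberg over all of them; a slope is called at an adjusted p below 0.05. Other statistics used Python 3.11.15, numpy 2.4.6, scipy 1.17.1 and pandas 2.3.3. The fits were tested on simulated data, with known slopes planted in genes that otherwise varied independently. Such data lack the variation shared between genes that is described here, so the counts of calls under it were not tested. The genes described and the lists were chosen with earlier results of these data known. Genes named are the 12 of the panel, the 20 of largest and 10 of smallest SD with a mean of at least 10 RPKM (predicted genes left out), the 2 widest and 1 steadiest member of each list, the 4 of smallest p per direction of each slope, the 8 most correlated with each end of PC1 and PC2, and the 6 leading genes of each of 6 clusters; any other is said to be chosen after its values were seen. Alternatives were another scaling, pseudocount and filter, no filter, an exact permutation test, library size as a covariate, and leaving out each library. Libraries from rolipram mice were not described. Some genes that the naming rule covers are not reported here.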

Additional observations from a re-analysis of the deposited data

Results flagged for a closer look

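Of 260 values examined (mostly named genes and list scores), 10 had 1 of the 7 C26 vehicle libraries farther from the other 6 than Dixon's 95% limit allows. Chance flags about 1 in 20 independent groups, and 10 of 260 is not above that rate. The values examined come from the same 7 libraries and vary together. The rate therefore does not decide whether a library stands apart. Over all genes kept, 619 (6.47%) passed that limit, 400 of them in vehicle 3. Vehicle 3 stood apart in Arl4d, a small GTPase (76.27 RPKM, others 3.13 to 12.1), Asb2, a ligase subunit (32.74 RPKM, others 116 to 244), Esrra, a nuclear receptor of respiratory genes (12.0 RPKM, others 19.9 to 24.7), and the predicted gene Gm44243 (21.18 RPKM, others 1.83 to 5.83). Vehicle 7 stood apart in the myelin gene Pmp22 (35.98 RPKM, others 11.2 to 15.6), in the score of the Schwann cell and nerve list (0.943, others at most 0.0937) and in that of the ATF4 stress response list (-0.2874, others at least -0.03). The other three were small in size: Becn1 at 15.36 RPKM in vehicle 4, the chaperone Hsp90aa1 at 15.69 RPKM in vehicle 5, and the clock repressor Cry1 at 4.397 RPKM in vehicle 1.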

How the results depend on the processing

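No paired analysis was possible because the slopes, pairs and components lie within 1 group, and the sample numbers shared with control mice do not tie animals together. Of the 1977 genes called with Trim63, 1 changed sign without vehicle 7 and 0 under each other alternative fitted. The share of calls that rose with Trim63 was 52.5%, against 41.5% with no filter and 66.3% with an RPKM minimum of 5; with Col1a1 it was 55.4%, against 68.4% and 30.3%. The slopes on Trim63 called 0 genes with library size as a covariate and 763 by exact permutation of r, and 619 to 1950 leaving out each library. Those on Cs called 805, 1649 and 1320 to 3277 in the same order. Those on Col1a1 called 39, 0 and 0 to 1181, and 459 with an RPKM minimum of 5 and 1405 with no filter. Those on library size called 8 under median-of-ratios scaling, 1 with a minimum of 5, 1 with no filter, 0 by permutation (1520 at an unadjusted p below 0.05) and 0 to 663 leaving out each library. The PC1 share was 64.32% with a minimum of 5, 58.148% with no filter, 45.354% with genes scaled to unit SD and 59.07% to 68.113% leaving out each library, genes filtered anew. The median SD was 0.254 with a pseudocount of 0.1 and 0.192 to 0.226 leaving out each library. The difference in spread between C26 vehicle and control ran from 0.0528 to 0.0822 over its alternatives. The cause was not tested in any of these. With 5 residual degrees of freedom in a slope, 1 library can decide a call.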
